A study of Mus musculus with 9 samples.

Results

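A set of 36 genes of glycolysis and of the response to low oxygen was examined in material from the auditory nerve of adult mice of the CBA/CaJ strain that were 8 to 12 weeks old. The set was chosen by name and holds 15 glycolytic enzymes and, beside them, glucose and lactate transporters, regulators of glycolysis and of pyruvate entry into mitochondria, hypoxia-inducible factor (HIF) subunits with their prolyl hydroxylases, and other targets of HIF. Of the 36 genes, 33 had an array probe set that names them alone, and these are 12 of the 15 enzymes and 21 other members, out of 18193 genes tested. Gpi1 and Eno1 were not analysed here because no probe set names either of them alone in the annotation used, and Gapdh is given below from the control probe sets of the array.

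RNA had been measured on Affymetrix expression arrays for the mouse genome in neurospheres, in cultured auditory nerve cells and in auditory nerve tissue, with 3 arrays for each group. For the neurospheres, dissociated nerve cells that had grown in 10% fetal bovine serum to confluency over 5 to 7 days were moved to serum-free medium that contained EGF (20 ng/ml), heparin (2 µg/ml) and FGF (10 ng/ml), and kept there for 12 further days. The cultured cells were collected at confluency, before that change of medium, and the tissue was collected from the temporal bone without culture or other treatment. The mice carried no transgene, both sexes were used, no sorting of cells is described for these samples, and the labels name no culture in low oxygen for them. It is not stated if the replicates of a group stem from different animals or dishes, and the p-values below therefore reflect only how far these 3 arrays scatter, possibly for technical reasons.

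Glycolysis splits glucose into pyruvate in the cytosol, and lactate dehydrogenase turns pyruvate into lactate when it does not enter the mitochondria. Several steps are run by enzymes with more than 1 gene, and nerve cells, glia and dividing cells are known to use different copies. When oxygen is ample, the EGLN prolyl hydroxylases mark the HIF alpha subunits for destruction, and when oxygen is scarce the subunits persist and switch on genes for glucose uptake, glycolysis, vessel growth and collagen processing. HIF is regulated chiefly at the level of its protein, which arrays do not measure.

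The 3 groups differed in the levels of cell type markers beyond these genes, and all values here are log2 signals. The mean of 7 neuron markers was 6.71 to 6.86 in neurospheres, 6.14 to 6.45 in cultured cells and 11.98 to 12.36 in tissue. The mean of 5 measured glial markers, among them Mbp and Sox10, was 7.39 to 7.61 in neurospheres, 7.77 to 7.96 in cultured cells and 12.19 to 12.31 in tissue. For 6 fibroblast markers it was 12.25 to 12.36 in neurospheres, 12.01 to 12.28 in cultured cells and 10.92 to 11.31 in tissue, and for 5 measured genes of cycling cells it was 9.28 to 9.78 in neurospheres, 11.12 to 11.28 in cultured cells and 4.46 to 4.65 in tissue. Markers of endothelium (6 genes) ran from 5.53 to 5.75 in neurospheres, from 6.27 to 6.36 in cultured cells and from 7.74 to 7.87 in tissue, and those of macrophages (6 genes) from 5.35 to 5.76 in neurospheres, from 5.31 to 5.52 in cultured cells and from 7.39 to 7.52 in tissue. Some single markers departed from their list's mean. In neurospheres against tissue, the neuron marker Syt1 (-0.05), the macrophage marker Cd68 (0.04) and the fibroblast marker Col1a1 (-0.63) did not differ beyond the thresholds given below. The endothelial marker Cdh5 was higher there by 0.84, and the fibroblast marker Dcn was lower by 1.09 in cultured cells against tissue. By the list means, the tissue carried the neuron and glia markers its label implies, and the cultured groups carried them at far lower levels. In such bulk samples fewer cells of a type and less RNA per cell cannot be told apart, and the part of these shifts in the members' results was not tested.

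Gapdh, the dehydrogenase in the middle of glycolysis, was read by 3 control probe sets along its transcript, and they did not give the same order of groups. Its 3′ probe set read 12.99, 12.90 and 12.88 in neurospheres, 12.99, 13.05 and 13.03 in cultured cells and 13.42, 13.41 and 13.42 in tissue. Its 5′ probe set read 12.69, 12.52 and 12.34 in neurospheres, 12.83, 12.86 and 12.80 in cultured cells and 10.94, 11.57 and 11.81 in tissue. Tissue was therefore the highest group at the 3′ end and the lowest at the 5′ end, with no overlap between tissue and the cultured groups at either end. The 3′ signal exceeded the 5′ signal by 0.41 ± 0.12 in neurospheres, 0.19 ± 0.037 in cultured cells and 1.98 ± 0.46 in tissue (SD, n = 3 each). The same difference for actin was 0.70 ± 0.15 in neurospheres, 0.36 ± 0.037 in cultured cells and 2.71 ± 0.35 in tissue. The part of this difference between the groups in the members' results was not tested. No direction is given for Gapdh.

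**Figure D1:**
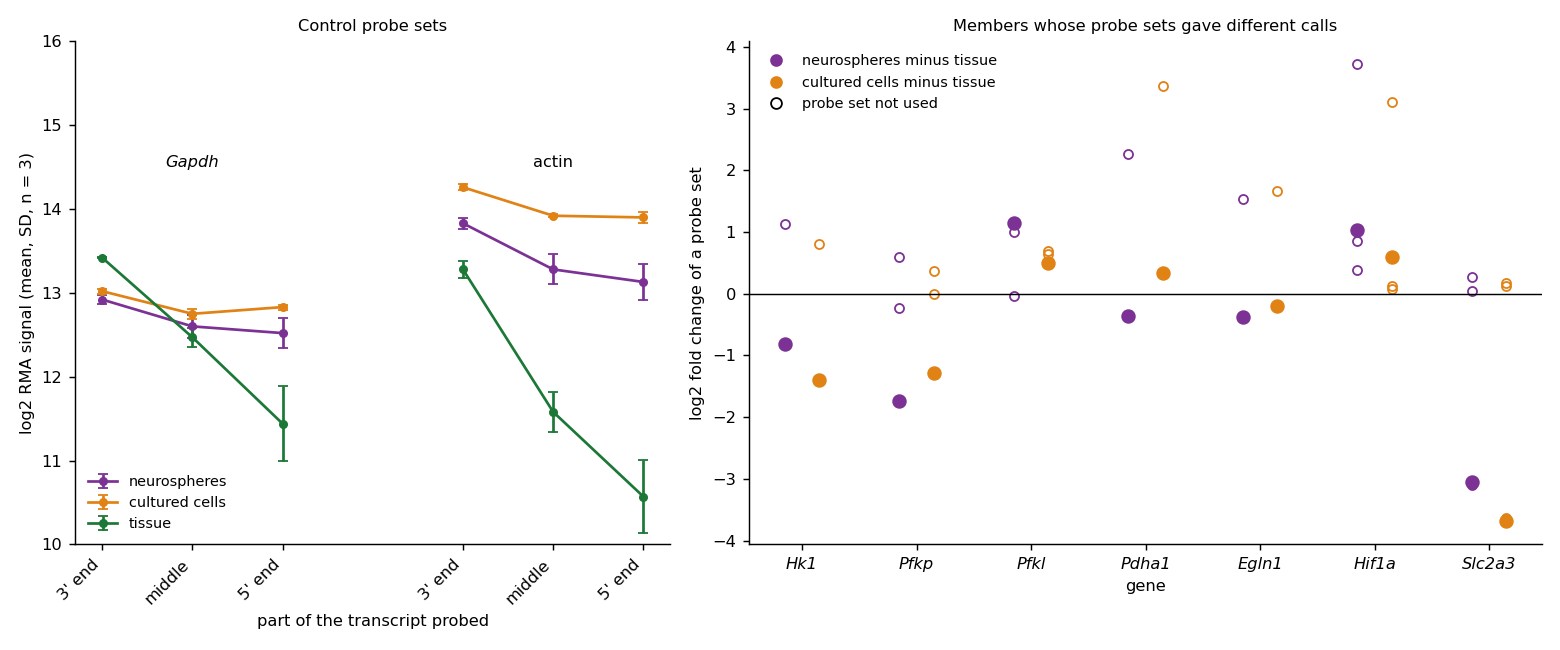
Left, log2 RMA signal (mean, error bars SD, 3 arrays a group) of the control probe sets at the 3′ end, the middle and the 5′ end of Gapdh and actin, where tissue drops from 3′ to 5′ (Gapdh by 1.98) more than neurospheres (0.41) and cultured cells (0.19). Right, log2 fold change against tissue of every probe set of 7 members, filled where the probe set stands for the gene and open otherwise, so that points of a gene on both sides of the line at 0 show probe sets that disagree.

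Differences were tested with limma across all genes, and a gene is said to have risen or fallen where its Benjamini-Hochberg adjusted p was under 0.05 and its fold change over 1.5. In neurospheres against tissue 42.7% of all genes passed, 21.7% rising and 21% falling. Of the 33 members, 10 rose, 12 fell and 11 did not pass, with a median log2 fold change of -0.36, against 0.05 for all genes. In cultured cells against tissue 42.4% of all genes passed (20.4% rose, 22% fell), and of the members 9 rose, 13 fell and 11 did not pass, with a median of -0.19, against -0.01 for all genes. In neurospheres against cultured cells 17.9% of all genes passed (9% rose, 8.91% fell), and of the members 7 rose, 4 fell and 22 did not pass, with a median of 0.09, against 0.05 for all genes. The groups did not overlap for 28 of the 33 members in neurospheres against tissue (68.1% of all genes), for 30 in cultured cells against tissue (68.6%) and for 21 in neurospheres against cultured cells (48.4%). These shares of all genes include dim genes. Without the dimmest 40% of genes, 5941 of 10916 passed in neurospheres against tissue, 5950 in cultured cells against tissue and 2643 in neurospheres against cultured cells. With that filter 8, 8 and 2 of the 12 enzymes passed in the same order, and 12, 13 and 8 of the 18 other members left. The comparisons share arrays, so a member's results in them are not independent of each other.

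The 12 glycolytic enzymes and the 21 other members are set apart here. Of the enzymes, 3 rose and 5 fell in neurospheres against tissue (median -0.30), 2 rose and 6 fell in cultured cells against tissue (median -0.41), and 2 rose and 0 fell in neurospheres against cultured cells (median 0.10). Of the other members, 7 rose and 7 fell in neurospheres against tissue (median -0.36), 7 rose and 7 fell in cultured cells against tissue (median -0.19), and 5 rose and 4 fell in neurospheres against cultured cells (median 0.02). Neither set moved in a single direction, and genes of the same enzyme family are found on opposite sides.

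**Figure D2:**
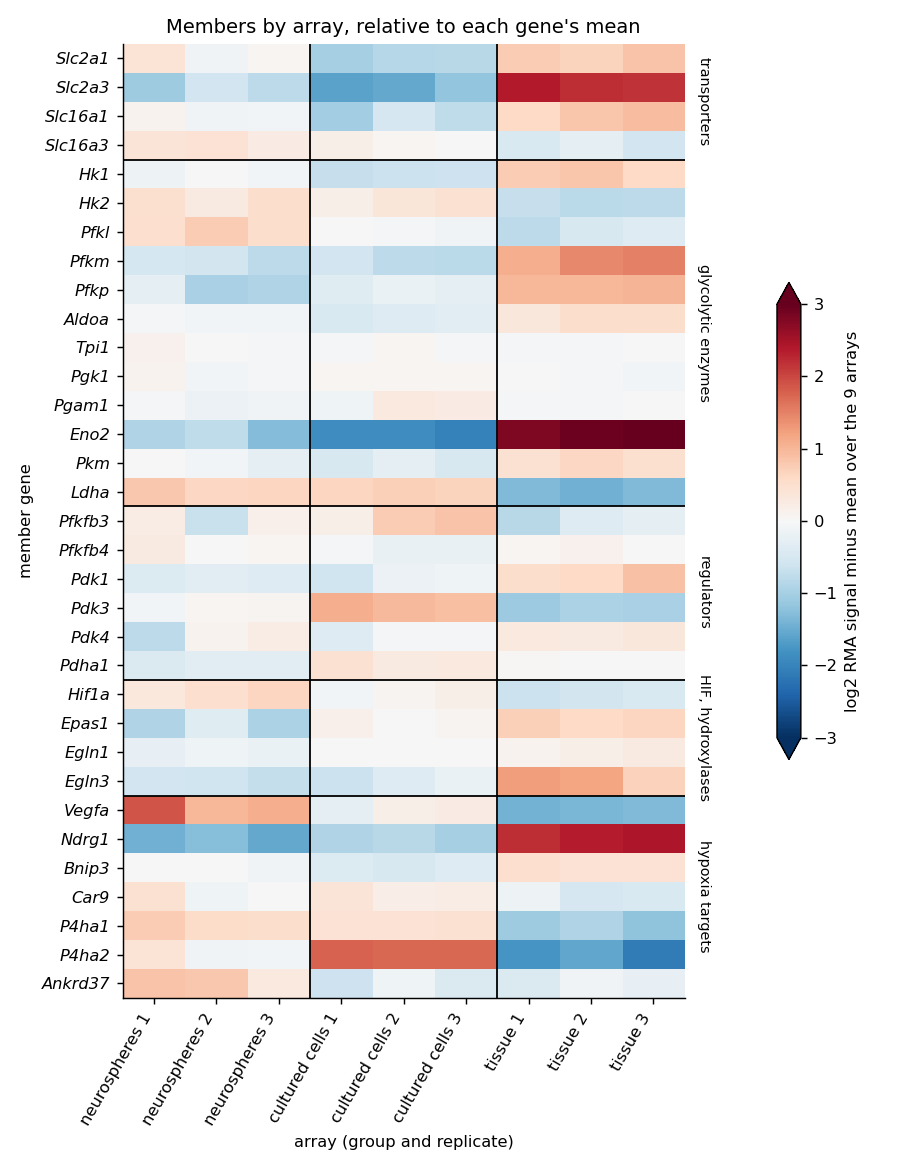
Log2 RMA signal of the 33 measured members (rows, by role) on the 9 arrays (columns), as the difference from each gene's mean over the arrays, with red above and blue below it and the scale ending at 3 on either side. Eno2, Slc2a3 and Ndrg1 are highest in tissue, Ldha, P4ha1 and Vegfa are lowest there, and P4ha2 and Pdk3 are highest in cultured cells.

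**Figure D3:**
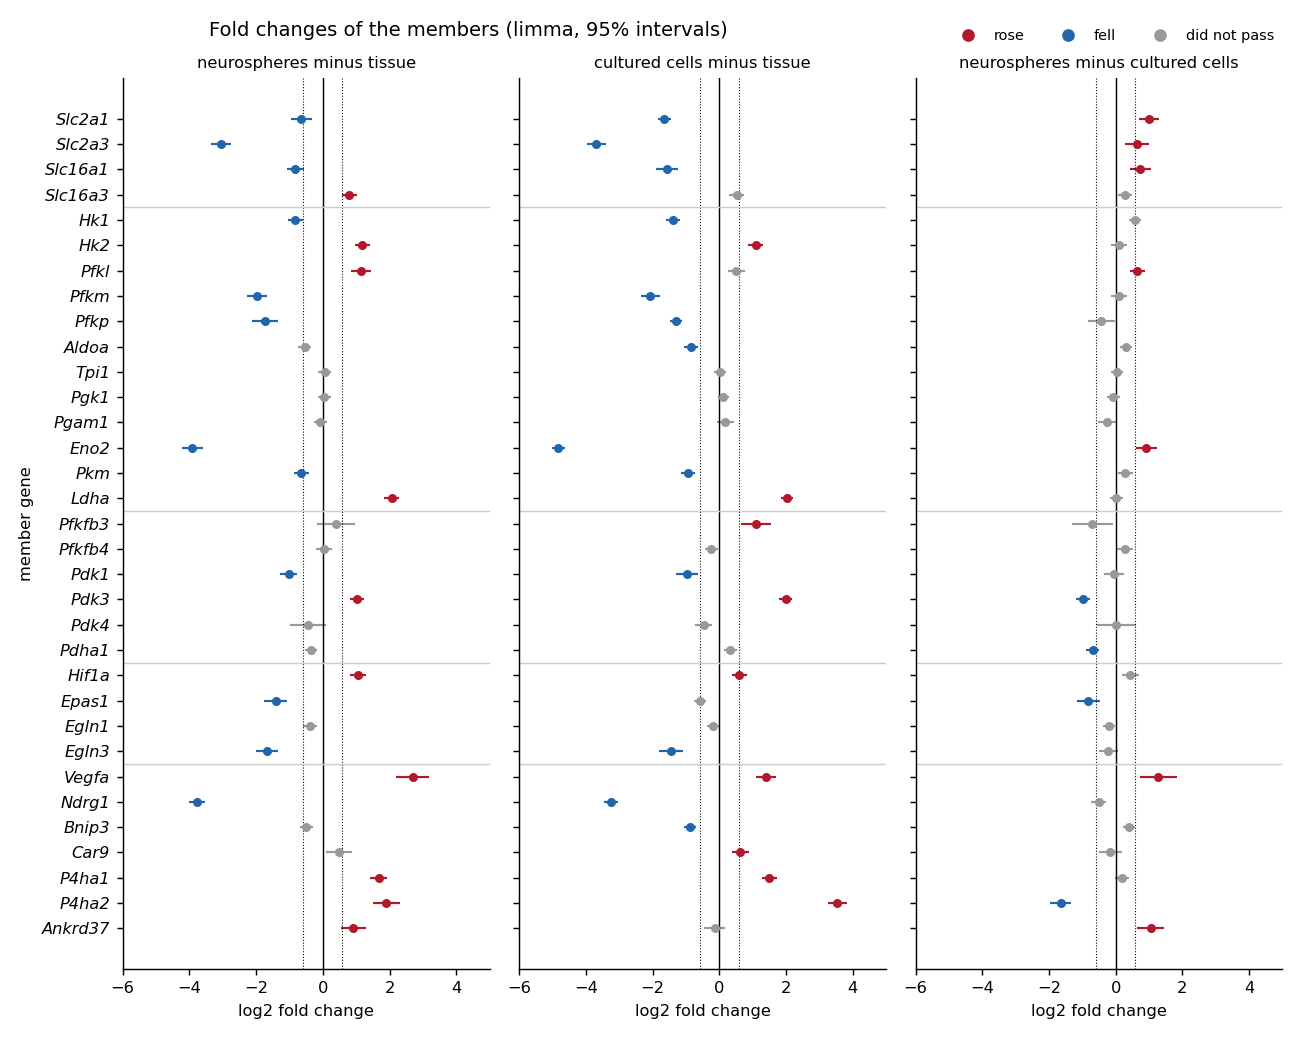
Log2 fold change of each member in the 3 comparisons with its 95% interval from limma, coloured by whether it rose, fell or did not pass, with dotted lines at a fold change of 1.5. Against tissue the members spread from -3.91 to 2.69 in neurospheres and from -4.83 to 3.54 in cultured cells, and between the cultured groups from -1.65 to 1.28.

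HIF binds DNA at a short core, ACGTG or GCGTG, and the promoters of members that moved in opposite directions were read for these letters. The promoters of 6 members, picked as examples, are shown. Of these, Ldha, P4ha2 and Vegfa rose and Slc16a1, Egln3 and Eno2 fell in neurospheres and in cultured cells against tissue. Each runs 5′ to 3′ from 250 bases before to 50 bases after the most upstream annotated start of the gene, from RefSeq on mouse build GRCm38.p6. Capitals mark ACGTG and GCGTG on either strand (CACGT and CACGC are the same cores read from the opposite strand), and CACGTG, which holds ACGTG on both strands, counts as 2 matches. The positions are chr7:46845554-46845853 (+) for Ldha, chr11:54100674-54100973 (+) for P4ha2, chr17:46032328-46032627 (-) for Vegfa, chr3:104638414-104638713 (+) for Slc16a1, chr12:54203825-54204124 (-) for Egln3 and chr6:124769624-124769923 (-) for Eno2.
Ldha: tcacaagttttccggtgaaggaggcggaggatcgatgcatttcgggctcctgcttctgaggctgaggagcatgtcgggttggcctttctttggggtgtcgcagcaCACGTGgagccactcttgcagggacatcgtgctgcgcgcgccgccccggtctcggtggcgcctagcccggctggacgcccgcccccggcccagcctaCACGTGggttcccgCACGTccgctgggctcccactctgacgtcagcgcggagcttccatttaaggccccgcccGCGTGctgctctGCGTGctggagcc
P4ha2: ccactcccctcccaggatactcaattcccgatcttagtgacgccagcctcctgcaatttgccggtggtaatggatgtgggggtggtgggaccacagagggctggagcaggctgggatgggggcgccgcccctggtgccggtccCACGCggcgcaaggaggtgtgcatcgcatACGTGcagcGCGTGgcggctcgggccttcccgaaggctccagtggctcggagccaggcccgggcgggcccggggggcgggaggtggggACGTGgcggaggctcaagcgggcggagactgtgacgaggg
Vegfa: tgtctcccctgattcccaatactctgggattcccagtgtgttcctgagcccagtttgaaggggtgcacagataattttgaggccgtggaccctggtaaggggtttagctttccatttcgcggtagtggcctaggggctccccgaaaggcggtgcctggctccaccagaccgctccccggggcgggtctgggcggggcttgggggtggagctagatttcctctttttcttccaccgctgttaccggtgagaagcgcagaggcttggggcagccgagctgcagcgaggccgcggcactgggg
Slc16a1: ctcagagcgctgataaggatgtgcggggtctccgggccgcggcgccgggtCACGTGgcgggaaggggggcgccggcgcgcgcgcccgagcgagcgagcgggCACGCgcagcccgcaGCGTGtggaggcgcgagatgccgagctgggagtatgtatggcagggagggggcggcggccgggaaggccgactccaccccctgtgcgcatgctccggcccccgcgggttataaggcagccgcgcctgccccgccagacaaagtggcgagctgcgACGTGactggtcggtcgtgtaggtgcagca
Egln3: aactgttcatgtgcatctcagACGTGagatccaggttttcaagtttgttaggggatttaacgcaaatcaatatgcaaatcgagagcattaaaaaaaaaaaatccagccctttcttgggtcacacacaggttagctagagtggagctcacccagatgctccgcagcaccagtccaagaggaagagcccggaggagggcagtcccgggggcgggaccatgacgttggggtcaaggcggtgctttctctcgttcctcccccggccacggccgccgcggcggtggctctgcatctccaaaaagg
Eno2: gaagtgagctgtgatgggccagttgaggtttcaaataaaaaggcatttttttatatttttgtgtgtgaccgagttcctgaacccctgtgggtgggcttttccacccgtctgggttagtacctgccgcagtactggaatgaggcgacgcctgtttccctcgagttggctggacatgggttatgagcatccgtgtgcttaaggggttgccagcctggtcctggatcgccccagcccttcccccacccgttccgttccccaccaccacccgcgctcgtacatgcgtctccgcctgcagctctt

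The Ldha promoter held 5 matches of ACGTG, 2 CACGTG among them, and 2 of GCGTG, and that of P4ha2 held 2 of each core. That of Slc16a1, a gene that fell against tissue, held 3 of ACGTG and 2 of GCGTG. Egln3 had 1 ACGTG, while the windows of Vegfa and Eno2 had no match. At a second annotated start of Vegfa, chr17:46025114-46025413 (-), the window held 1 match of each core. Of the 33 members with a promoter in the RefSeq table, of which 30 were also measured, 26 (78.8%) had either core in the most upstream window, against 43.8% of 27025 genes, and 19 (57.6%) had ACGTG, against 19.6%. Over all annotated starts, 37 of 46 member windows (80.4%) had either core, against 43.8% of 32851 promoters. Counted by gene, 30 of the 33 (90.9%) had either core in at least 1 window. This looser count has no share over all genes beside it. Slc2a3, Ndrg1 and Epas1, which all fell in neurospheres against tissue, have no promoter in the table and are missing from the counts. Counts by call use only the most upstream window, and ACGTG was found there in 8 of the 10 members that rose in neurospheres against tissue. It was found in 4 of the 9 that fell and have a promoter in the table. In cultured cells against tissue it was found in 8 of 9 that rose and in 5 of 11 that fell. GCGTG was found in 6 of the 10 that rose and 4 of the 9 that fell in neurospheres, and in 4 of 9 that rose and 5 of 11 that fell in cultured cells. Of the members that did not pass, 6 of 11 in neurospheres and 5 of 10 in cultured cells had ACGTG, and 6 of 11 and 7 of 10 had GCGTG. Either core was found in 9 of 11 that did not pass, 9 of 10 that rose and 6 of 9 that fell in neurospheres. In cultured cells it was found in 9 of 10 that did not pass, 8 of 9 that rose and 7 of 11 that fell. Some members that fell had no match in that window but had matches at another start, so the counts by call depend on the start used. At its other start Hk1 held 2 of ACGTG and 3 of GCGTG, and Pkm held 2 of ACGTG. Aldoa, which fell in cultured cells, held 1 of ACGTG at each other start. Hypoxia targets are in part known as such from these cores, so the members' share is a description of the set, and a match is neither a shown binding site nor a cause.

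The transporters carry glucose in and lactate out or in. In neurospheres against tissue 1 of the 4 rose and 3 fell, in cultured cells against tissue 0 rose and 3 fell, and in neurospheres against cultured cells 3 rose and 0 fell. Slc2a1 (GLUT1), the glucose carrier of most tissues, read 11.14, 10.63 and 10.78 in neurospheres, 9.74, 9.88 and 9.89 in cultured cells and 11.49, 11.40 and 11.57 in tissue. The 3 groups did not overlap, with tissue highest and cultured cells lowest. Slc2a1 fell by 0.64 in neurospheres against tissue (1.56-fold, 95% interval -0.94 to -0.33, adjusted p = 0.00271) and by 1.65 in cultured cells against tissue (3.14-fold, adjusted p = 1.29e-07), and it rose by 1.01 in neurospheres against cultured cells (2.02-fold, adjusted p = 0.000552). The fall in neurospheres lay near the fold threshold: without neurosphere replicate 2 the log2 fold change was -0.53, under it. The other probe sets of Slc2a1 differed by -0.41 and 0.00 in neurospheres against tissue and did not pass, nor did the mean of the probe sets (-0.35), whereas in the other comparisons all 3 probe sets gave the same call.

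Slc2a3 (GLUT3), the carrier best known from neurons, read 8.31, 8.80 and 8.58 in neurospheres, 7.75, 7.83 and 8.19 in cultured cells and 11.74, 11.57 and 11.53 in tissue. Every tissue array stood above every array of the cultured groups. It fell 8.28-fold in neurospheres against tissue (log2 -3.05, adjusted p = 1.27e-07) and 12.9-fold in cultured cells against tissue (log2 -3.69, adjusted p = 5.97e-09), and in neurospheres against cultured cells it rose 1.56-fold (log2 0.64, adjusted p = 0.0131). That last rise was lost without cultured cell replicate 1 or 2 or neurosphere replicate 2, where the log2 fold change was 0.55, 0.59 and 0.52. The probe set is marked by its maker as able to bind other transcripts. Of the other probe sets, one that also carries such a mark fell in both comparisons with tissue, with log2 fold changes of -3.10 in neurospheres and -3.63 in cultured cells. Both probe sets without the mark were dim, at 4.30 and 4.04 in neurospheres, 4.44 and 3.88 in cultured cells and 4.26 and 3.76 in tissue, and with differences of 0.04 and 0.28 in neurospheres and of 0.18 and 0.12 in cultured cells against tissue they did not pass.

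Slc16a1 (MCT1), a carrier of lactate, pyruvate and ketone bodies, read 10.72, 10.50 and 10.51 in neurospheres, 9.57, 10.11 and 9.83 in cultured cells and 11.21, 11.44 and 11.54 in tissue. Again tissue was highest and cultured cells lowest with no overlap. It fell 1.76-fold in neurospheres against tissue (log2 -0.82, adjusted p = 0.000236) and 2.95-fold in cultured cells against tissue (log2 -1.56, adjusted p = 7.13e-06), and it rose 1.67-fold in neurospheres against cultured cells (log2 0.74, adjusted p = 0.00394). A dimmer probe set of Slc16a1 fell in both comparisons with tissue as well, but between neurospheres and cultured cells its difference of 0.42 did not pass, nor did the mean of both probe sets (0.58). Slc16a3 (MCT4), the lactate exporter of strongly glycolytic cells, was lowest in tissue, at signals below the array median of 6.15 to 6.27. It read 4.43, 4.49 and 4.30 in neurospheres, 4.23, 4.10 and 4.05 in cultured cells and 3.59, 3.76 and 3.48 in tissue. The rise of 0.79 in neurospheres against tissue passed (1.73-fold, adjusted p = 0.000138), whereas the log2 differences of 0.52 in cultured cells against tissue and 0.28 in neurospheres against cultured cells did not reach the fold threshold.

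Among the enzymes, Hk1 and Hk2 trap glucose in the cell as its phosphate, Hk1 in most adult tissues and Hk2 chiefly in muscle, fat and dividing cells. Hk2 read 9.06, 8.85 and 9.10 in neurospheres, 8.76, 8.94 and 9.03 in cultured cells and 7.89, 7.77 and 7.80 in tissue. Both cultured groups lay above tissue and overlapped each other. Hk2 rose 2.27-fold in neurospheres against tissue (log2 1.18, 95% interval 0.96 to 1.40, adjusted p = 7.62e-06) and 2.13-fold in cultured cells against tissue (log2 1.09, adjusted p = 4.74e-06). Hk1 read 10.07, 10.22 and 10.15 in neurospheres, 9.53, 9.59 and 9.60 in cultured cells and 11.00, 11.06 and 10.82 in tissue. Tissue was here the highest group, whereas it was the lowest for Hk2. Hk1 fell 1.76-fold in neurospheres against tissue (log2 -0.82, adjusted p = 7.83e-05) and 2.61-fold in cultured cells against tissue (log2 -1.39, adjusted p = 5.13e-07). The other probe set of Hk1, at 5.42 in neurospheres, 5.08 in cultured cells and 4.28 in tissue, rose by 1.13 in neurospheres and by 0.80 in cultured cells against tissue, so the direction for Hk1 holds for its brighter probe set and the cause of the disagreement was not tested.

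**Figure D4:**
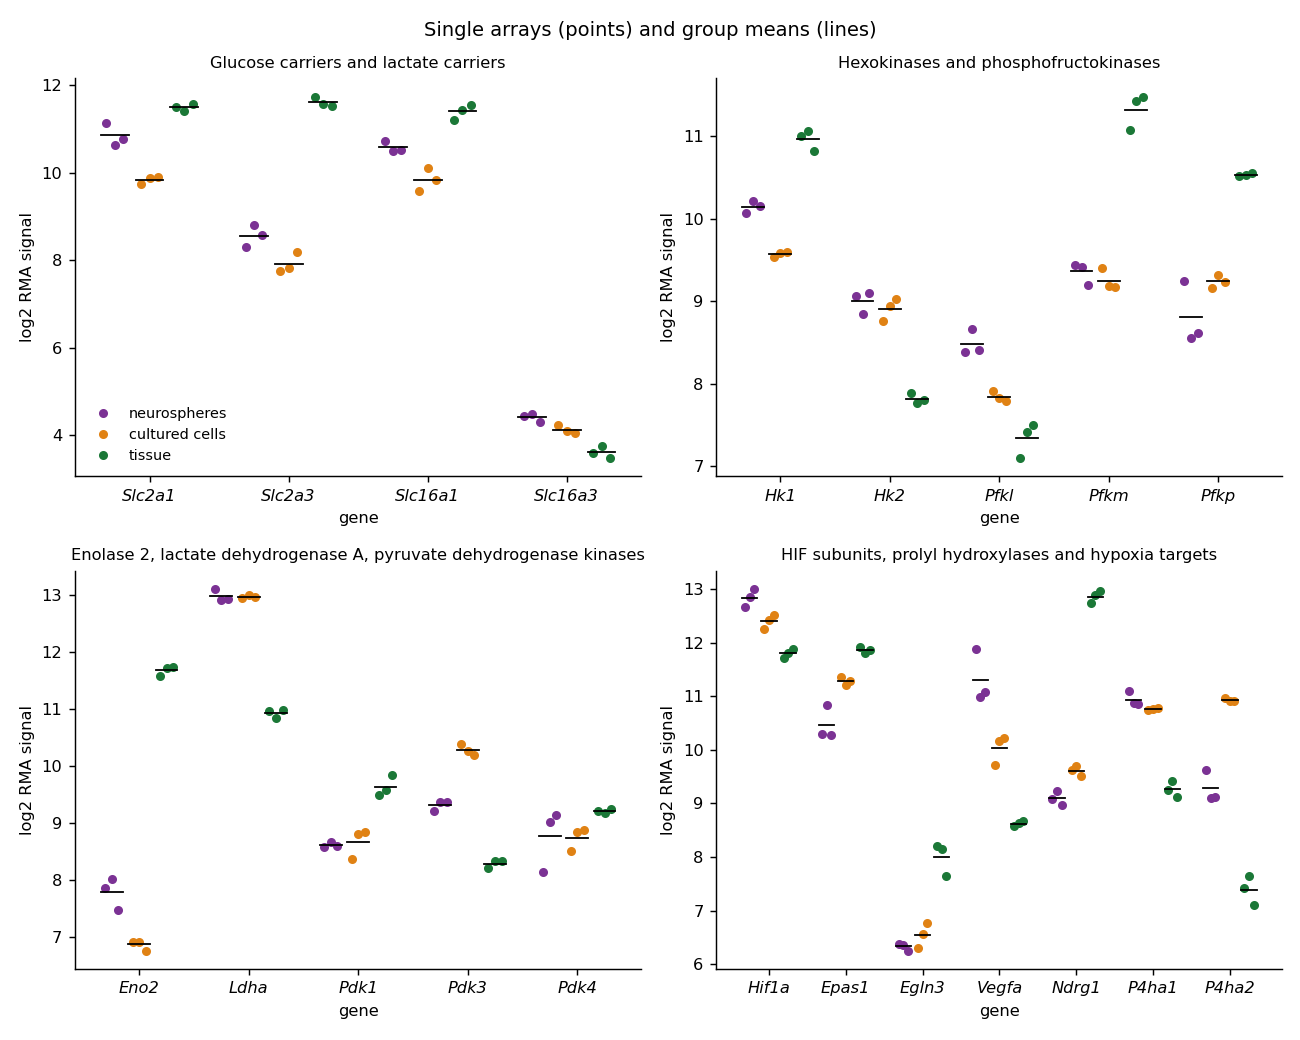
Log2 RMA signal on each array (points) with group means (lines) for 21 members in 4 role groups, neurospheres, cultured cells and tissue from left to right within a gene. Tissue is highest for Hk1, Pfkm, Pdk1 and Epas1 and lowest for Hk2, Pfkl, Pdk3 and Hif1a, and heights are not comparable between genes because probe sets differ in brightness.

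Pfkl, Pfkm and Pfkp encode the liver, muscle and platelet subunits of phosphofructokinase, which commits glucose to glycolysis. Pfkm read 9.44, 9.42 and 9.20 in neurospheres, 9.40, 9.19 and 9.17 in cultured cells and 11.07, 11.42 and 11.48 in tissue. It fell 3.92-fold in neurospheres against tissue (log2 -1.97, adjusted p = 1.69e-06) and 4.20-fold in cultured cells against tissue (log2 -2.07, adjusted p = 2.99e-07). Pfkp read 9.24, 8.55 and 8.62 in neurospheres, 9.16, 9.32 and 9.23 in cultured cells and 10.52, 10.53 and 10.55 in tissue. For both genes all tissue arrays were above the cultured groups, which overlapped, and among the neurospheres replicate 1 was well above the other replicates for Pfkp. Pfkp fell 3.31-fold in neurospheres against tissue (log2 -1.73, adjusted p = 2.57e-05) and 2.45-fold in cultured cells against tissue (log2 -1.29, adjusted p = 4.39e-07).

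Pfkl, in contrast, read 8.39, 8.66 and 8.41 in neurospheres, 7.91, 7.83 and 7.79 in cultured cells and 7.10, 7.42 and 7.50 in tissue, with no overlap between the groups and neurospheres highest. It rose 2.21-fold in neurospheres against tissue (log2 1.15, adjusted p = 6.32e-05) and 1.56-fold in neurospheres against cultured cells (log2 0.64, adjusted p = 0.00131), and the difference of 0.50 in cultured cells against tissue was under the fold threshold. The other Pfkl probe sets rose by 0.65 and 0.69 in cultured cells against tissue, and the mean of all probe sets passed there (0.61, adjusted p = 5.09e-05). In neurospheres against tissue, one of them rose (means 7.19 and 6.18) and the other differed by -0.03 and did not pass. The rise against cultured cells was lost without neurosphere replicate 2 (log2 0.55), one of the other Pfkl probe sets fell by 0.72 in that comparison, and the mean of all probe sets differed by 0.09. A dim probe set of Pfkp (5.67 in neurospheres and 5.07 in tissue) also went against the main one, rising by 0.59 in neurospheres against tissue.

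In the later steps of the pathway the changes were uneven. Eno2, the enolase of neurons, had the largest fall of the 33 members in both comparisons with tissue. It read 7.86, 8.01 and 7.47 in neurospheres, 6.91, 6.91 and 6.75 in cultured cells and 11.58, 11.72 and 11.75 in tissue. The groups did not overlap, and the gap to tissue was many times the spread within any group. Eno2 fell 15.0-fold in neurospheres against tissue (log2 -3.91, 95% interval -4.23 to -3.58, adjusted p = 4.29e-08) and 28.4-fold in cultured cells against tissue (log2 -4.83, adjusted p = 1.92e-10), and in neurospheres against cultured cells it rose 1.89-fold (log2 0.92, adjusted p = 0.00125). Of the 7 neuron markers, 0 rose and 6 fell in neurospheres against tissue, with a median of -5.83, and 0 rose and 7 fell in cultured cells against tissue, with a median of -6.83.

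Ldha, which turns pyruvate into lactate, went the other way. It read 13.11, 12.92 and 12.94 in neurospheres, 12.95, 13.01 and 12.97 in cultured cells and 10.97, 10.85 and 10.98 in tissue. All 6 arrays of cultured material lay above the tissue arrays and overlapped among themselves. Ldha rose 4.16-fold in neurospheres against tissue (log2 2.06, 95% interval 1.84 to 2.27, adjusted p = 1.63e-07) and 4.12-fold in cultured cells against tissue (log2 2.04, adjusted p = 1.64e-08), and the difference between the cultured groups was 0.01 (95% interval -0.18 to 0.21). Ldhb, which encodes the other main subunit of lactate dehydrogenase and is no member of the set, fell by 1.85 in neurospheres against tissue (adjusted p = 1.3e-05) and by 1.27 in cultured cells against tissue (adjusted p = 3.16e-07).

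Pkm, the pyruvate kinase outside liver and red cells, fell 1.56-fold in neurospheres against tissue (means 11.09 and 11.73, adjusted p = 0.00047) and 1.91-fold in cultured cells against tissue (means 10.80 and 11.73, adjusted p = 1.2e-05). The fall in neurospheres dropped under the fold threshold without neurosphere replicate 3 (log2 -0.57). The probe set used for Pkm was not assigned to either of its splice forms, which differ between adult and dividing tissues. Aldoa, the aldolase of muscle and most other tissues, fell 1.80-fold in cultured cells against tissue (means 12.50 and 13.35, adjusted p = 1.57e-05) and had a log2 difference of -0.54 in neurospheres against tissue, under the threshold. All its probe sets are marked as able to bind other transcripts. Of those not used, some fell in cultured cells (-0.83 and -0.97) and others did not pass (-0.56 and -0.42). In neurospheres one of them fell (-0.60), and the rest did not pass (-0.52, -0.21 and -0.28). Tpi1, Pgk1 and Pgam1, which run the middle steps, did not pass in any comparison. Their log2 fold changes against tissue were 0.06 (95% interval -0.13 to 0.25), 0.05 (-0.15 to 0.25) and -0.07 (-0.26 to 0.12) in neurospheres, and 0.03 (-0.15 to 0.20), 0.12 (-0.05 to 0.29) and 0.18 (-0.08 to 0.44) in cultured cells. These intervals leave out a fold change of 1.5 in either direction, whereas Pkm and Eno2 of the same pathway fell in both comparisons and Aldoa fell in cultured cells.

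Of the 6 regulators, 1 rose and 1 fell in neurospheres against tissue, 2 rose and 1 fell in cultured cells against tissue, and 0 rose and 2 fell in neurospheres against cultured cells. The pyruvate dehydrogenase kinases switch off the entry of pyruvate into mitochondria. Pdk3 read 9.20, 9.36 and 9.37 in neurospheres, 10.38, 10.26 and 10.19 in cultured cells and 8.20, 8.33 and 8.32 in tissue. The groups did not overlap and cultured cells were highest. Pdk3 rose 2.04-fold in neurospheres against tissue (log2 1.03, adjusted p = 1.28e-05) and 3.98-fold in cultured cells against tissue (log2 1.99, adjusted p = 3.53e-08), and it fell 1.96-fold in neurospheres against cultured cells (log2 -0.97, adjusted p = 9.19e-05). Pdk1, the kinase best known as a HIF target, read 8.57, 8.66 and 8.59 in neurospheres, 8.36, 8.80 and 8.84 in cultured cells and 9.49, 9.57 and 9.84 in tissue. All tissue arrays were above the cultured groups, whereas for Pdk3 they were below them. Pdk1 fell 2.03-fold in neurospheres against tissue (log2 -1.02, adjusted p = 3.87e-05) and 1.95-fold in cultured cells against tissue (log2 -0.96, adjusted p = 0.000241). Of its 3 other probe sets, 2 fell in both comparisons, with log2 fold changes of -0.95 and -2.26 in neurospheres and of -1.49 and -2.31 in cultured cells, and the third, with differences of -0.19 in neurospheres and -0.20 in cultured cells, did not pass.

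Pdk4, the kinase induced by fasting in muscle and liver, did not pass, with log2 differences of -0.45 in neurospheres against tissue (95% interval -0.98 to 0.09) and -0.47 in cultured cells against tissue (-0.72 to -0.23). Neurosphere replicate 1, at 8.13, was apart from replicates 2 and 3 at 9.02 and 9.14, and without replicate 3 the fall of 0.64 in neurospheres against tissue passed (adjusted p = 0.0493). Pfkfb3, which makes the sugar phosphate that activates phosphofructokinase, read 7.91, 7.01 and 7.84 in neurospheres, 7.86, 8.45 and 8.54 in cultured cells and 6.85, 7.30 and 7.42 in tissue. Cultured cells were above tissue on every array and neurospheres overlapped with both. Pfkfb3 rose 2.13-fold in cultured cells against tissue (log2 1.09, adjusted p = 0.000789), and its difference of 0.40 in neurospheres against tissue did not pass (95% interval -0.17 to 0.96). Without neurosphere replicate 2 that difference was 0.69 and passed. A dim second probe set of Pfkfb3, at 4.40 in cultured cells and 4.04 in tissue, differed by 0.36 in cultured cells and by 0.40 in neurospheres against tissue and did not pass. Pfkfb4, a relative of Pfkfb3, did not pass in any comparison, with means of 8.17 in neurospheres, 7.89 in cultured cells and 8.13 in tissue.

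Pdha1, the catalytic subunit of pyruvate dehydrogenase itself, read 11.80, 11.91 and 11.92 in neurospheres, 12.69, 12.50 and 12.51 in cultured cells and 12.25, 12.24 and 12.21 in tissue. Cultured cells were highest and neurospheres lowest, without overlap, and the fall of 0.69 in neurospheres against cultured cells passed (1.61-fold, adjusted p = 0.0005). Against tissue its probe sets disagreed. The brighter one differed by -0.36 in neurospheres and by 0.33 in cultured cells and did not pass, while the other, at 9.80 in neurospheres, 10.88 in cultured cells and 7.52 in tissue, rose by 2.27 in neurospheres and by 3.36 in cultured cells. With the mean of the 2 probe sets Pdha1 rose by 0.96 in neurospheres against tissue (adjusted p = 6.86e-06) and by 1.85 in cultured cells against tissue (adjusted p = 8.1e-08).

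The HIF alpha subunits moved apart on the probe sets used. Hif1a, the subunit present in nearly all cells, read 12.67, 12.86 and 13.00 in neurospheres, 12.26, 12.43 and 12.52 in cultured cells and 11.71, 11.81 and 11.89 in tissue. No group overlapped with another, and neurospheres were highest. Hif1a rose 2.06-fold in neurospheres against tissue (log2 1.04, adjusted p = 3.38e-05) and 1.52-fold in cultured cells against tissue (log2 0.60, adjusted p = 0.000398). The smaller rise lay at the threshold and was lost without cultured cell replicate 3 (0.54), without tissue replicate 1 (0.55) and with each array centred on the more highly expressed genes (0.52). Other Hif1a probe sets gave log2 fold changes of 0.39 to 3.72 in neurospheres and of 0.08 to 3.11 in cultured cells against tissue. Of these 3 probe sets, 1 did not pass in neurospheres (0.39) and 2 did not pass in cultured cells (0.08 and 0.12), so the rise in cultured cells is not shared by all probe sets of Hif1a.

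Epas1, the HIF alpha subunit known from vessels, read 10.30, 10.84 and 10.27 in neurospheres, 11.37, 11.21 and 11.28 in cultured cells and 11.93, 11.81 and 11.86 in tissue. The order was the reverse of Hif1a, again with no overlap. Epas1 fell 2.64-fold in neurospheres against tissue (log2 -1.40, adjusted p = 4.36e-05) and 1.76-fold in neurospheres against cultured cells (log2 -0.82, adjusted p = 0.00347). In cultured cells against tissue its log2 difference of -0.58 was just under the fold threshold and passed at -0.62 without cultured cell replicate 1 and at -0.61 without tissue replicate 2. A dim second probe set of Epas1, at 5.68 in neurospheres, 6.21 in cultured cells and 5.96 in tissue, did not pass in any comparison. It differed by -0.28 in neurospheres and by 0.25 in cultured cells against tissue, and by -0.53 in neurospheres against cultured cells. Of the 6 endothelial markers, 1 rose and 5 fell in neurospheres against tissue and 0 rose and 4 fell in cultured cells against tissue.

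The prolyl hydroxylases sense oxygen, and Egln3 is itself induced by HIF. Egln3 read 6.38, 6.36 and 6.25 in neurospheres, 6.31, 6.56 and 6.77 in cultured cells and 8.20, 8.15 and 7.64 in tissue. Tissue lay above both cultured groups, which overlapped. It fell 3.18-fold in neurospheres against tissue (log2 -1.67, adjusted p = 1.23e-05) and 2.73-fold in cultured cells against tissue (log2 -1.45, adjusted p = 3.34e-05). A second probe set of Egln3 fell by 1.22 in neurospheres and had a log2 difference of -0.38 in cultured cells, which did not pass, and it fell by 0.85 in neurospheres against cultured cells (adjusted p = 0.00829). Egln1, the main hydroxylase of HIF in most tissues, had means of 9.45 in neurospheres, 9.64 in cultured cells and 9.83 in tissue and did not pass in any comparison. Its dimmer probe set, at 8.11 in neurospheres, 8.25 in cultured cells and 6.58 in tissue, rose by 1.53 in neurospheres and by 1.66 in cultured cells against tissue, so no direction is given for Egln1.

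Of the 7 other hypoxia targets, 4 rose and 1 fell in neurospheres against tissue, 4 rose and 2 fell in cultured cells against tissue, and 2 rose and 1 fell in neurospheres against cultured cells. Vegfa, the vascular endothelial growth factor, had the largest rise of the members in neurospheres against tissue. It read 11.88, 10.98 and 11.08 in neurospheres, 9.71, 10.17 and 10.23 in cultured cells and 8.57, 8.63 and 8.67 in tissue. The 3 groups did not overlap, and neurosphere replicate 1 was the highest array. Vegfa rose 6.45-fold in neurospheres against tissue (log2 2.69, 95% interval 2.20 to 3.18, adjusted p = 5.92e-06), 2.66-fold in cultured cells against tissue (log2 1.41, adjusted p = 9.11e-06) and 2.43-fold in neurospheres against cultured cells (log2 1.28, 95% interval 0.72 to 1.84, adjusted p = 0.00391). A second probe set rose by 2.31 in neurospheres and by 1.95 in cultured cells against tissue, and differed by 0.36 between neurospheres and cultured cells, which did not pass.

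P4ha1 and P4ha2 encode the catalytic subunits of the collagen prolyl hydroxylases, needed for stable collagen. P4ha2 read 9.62, 9.10 and 9.12 in neurospheres, 10.96, 10.92 and 10.92 in cultured cells and 7.42, 7.64 and 7.11 in tissue. The groups did not overlap and cultured cells were highest. It rose 3.71-fold in neurospheres against tissue (log2 1.89, adjusted p = 1.75e-05) and 11.7-fold in cultured cells against tissue (log2 3.54, adjusted p = 8.45e-09), the largest rise of any member, and it fell 3.14-fold in neurospheres against cultured cells (log2 -1.65, adjusted p = 5.21e-05). P4ha1 read 11.10, 10.87 and 10.86 in neurospheres, 10.75, 10.77 and 10.79 in cultured cells and 9.26, 9.42 and 9.12 in tissue. P4ha1 rose 3.20-fold in neurospheres against tissue (log2 1.68, adjusted p = 1.97e-06) and 2.83-fold in cultured cells against tissue (adjusted p = 4.74e-07), and the difference of 0.18 between the cultured groups did not pass. Of the 6 fibroblast markers, 5 rose and 0 fell in neurospheres against tissue and 3 rose and 1 fell in cultured cells against tissue.

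Ndrg1, a stress-response gene that is also needed by myelinating Schwann cells, fell more than any member but Eno2 in neurospheres. It read 9.08, 9.24 and 8.98 in neurospheres, 9.62, 9.70 and 9.52 in cultured cells and 12.74, 12.89 and 12.96 in tissue. Tissue was far above both cultured groups, which did not overlap with each other. Ndrg1 fell 13.6-fold in neurospheres against tissue (log2 -3.76, 95% interval -4.00 to -3.52, adjusted p = 9.97e-09) and 9.51-fold in cultured cells against tissue (log2 -3.25, adjusted p = 2.14e-09). Its 5 probe sets all fell in both comparisons, with log2 fold changes of -4.40 to -1.57 in neurospheres and of -3.85 to -1.35 in cultured cells. All 5 measured glial markers fell in both comparisons as well, with medians of -4.56 in neurospheres and -4.44 in cultured cells.

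Ankrd37, an ankyrin repeat protein, read 6.55, 6.50 and 5.99 in neurospheres, 5.07, 5.57 and 5.26 in cultured cells and 5.26, 5.60 and 5.46 in tissue. The neurosphere arrays were above all others, and cultured cells and tissue overlapped. All cultured cell and tissue arrays, and neurosphere replicate 3 at 5.99, were below the array medians of 6.15 to 6.27. Ankrd37 rose 1.87-fold in neurospheres against tissue (log2 0.90, adjusted p = 0.00111) and 2.07-fold in neurospheres against cultured cells (log2 1.05, adjusted p = 0.00228). Bnip3, which marks mitochondria for removal, fell 1.85-fold in cultured cells against tissue (means 10.93 and 11.81, adjusted p = 5.4e-06) and had a log2 difference of -0.49 in neurospheres against tissue, under the threshold. Car9, a carbonic anhydrase of the cell surface and a common marker of hypoxic cells, had means of 4.96 in neurospheres, 5.12 in cultured cells and 4.48 in tissue, all below the array medians. It rose 1.55-fold in cultured cells against tissue (adjusted p = 0.000678), a call lost without cultured cell replicate 1 (log2 0.58) or tissue replicate 2 (0.57), and its difference of 0.48 in neurospheres against tissue was under the threshold and passed at 0.59 without neurosphere replicate 2 and at 0.59 without tissue replicate 1.

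Genes that adjoin these pathways were listed by role from textbook knowledge. Their counts stand beside a share of all genes that passed of 42.7% in neurospheres against tissue (21.7% rose, 21% fell). It was 42.4% in cultured cells against tissue (20.4% rose, 22% fell) and 17.9% in neurospheres against cultured cells (9% rose, 8.91% fell). Of 10 measured genes of pyruvate entry into mitochondria, 1 rose and 7 fell in neurospheres against tissue (median -0.92) and 1 rose and 6 fell in cultured cells against tissue (median -0.65). Pck2, the mitochondrial enzyme that makes phosphoenolpyruvate, rose by 1.52 in neurospheres (adjusted p = 3.7e-06) and by 2.13 in cultured cells (adjusted p = 1.17e-08) against tissue. Pcx, which carboxylates pyruvate, fell by 1.70 in neurospheres, and the phosphatase Pdp1, which reactivates pyruvate dehydrogenase, fell by 2.57 in cultured cells. Pdk2, the kinase most widely expressed in adult tissues, fell by 1.49 in neurospheres (adjusted p = 2.88e-06) and by 1.70 in cultured cells (adjusted p = 3.45e-07), on the side of Pdk1 and opposite to Pdk3. Of 15 citric acid cycle enzymes, 0 rose and 5 fell in neurospheres against tissue and 1 rose and 4 fell in cultured cells against tissue, and 0 passed between neurospheres and cultured cells. The isocitrate dehydrogenase subunits Idh3a, Idh3b and Idh3g fell by 1.12, 0.94 and 1.01 in neurospheres and by 0.84, 1.25 and 1.16 in cultured cells.

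Of 6 pentose phosphate enzymes, 2 rose and 0 fell in neurospheres against tissue (median 0.40) and 3 rose and 0 fell in cultured cells against tissue (median 0.51). Pgls and Pgd, which act at consecutive steps of its oxidative branch, rose by 1.48 and 1.02 in neurospheres and by 1.26 and 0.89 in cultured cells. Of 13 other glycolytic and gluconeogenic genes, 1 rose and 4 fell in neurospheres against tissue and 1 rose and 4 fell in cultured cells against tissue. Aldoc, the aldolase of brain, fell by 4.60 in neurospheres (adjusted p = 1.46e-07) and by 5.57 in cultured cells (adjusted p = 1.48e-10), a larger log2 change than that of any member. Fbp1, which runs the phosphofructokinase step backwards in liver and kidney, rose by 1.80 in neurospheres against tissue (adjusted p = 1.04e-05) and by 1.42 in neurospheres against cultured cells (adjusted p = 0.000235).

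Of 7 other components of the HIF pathway, 0 rose and 2 fell in neurospheres against tissue, 1 rose and 0 fell in cultured cells against tissue, and 0 rose and 2 fell in neurospheres against cultured cells. Cited2, which competes with HIF for its coactivator, fell by 0.59 in neurospheres against tissue (adjusted p = 0.000381) and by 1.31 in neurospheres against cultured cells (adjusted p = 1.19e-05) and rose by 0.72 in cultured cells against tissue (adjusted p = 4.25e-05). Arnt and Vhl, the HIF partner subunit and the protein that tags HIF for destruction, had log2 differences between -0.04 and 0.26 in the 3 comparisons and did not pass.

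Of 17 further hypoxia targets, 8 rose and 6 fell in neurospheres against tissue (median 0.18), 5 rose and 6 fell in cultured cells against tissue (median -0.12), and 5 rose and 6 fell in neurospheres against cultured cells (median 0.03). Adm, which encodes the vessel-widening peptide adrenomedullin, rose by 1.55 in neurospheres and by 5.25 in cultured cells against tissue, and fell by 3.69 in neurospheres against cultured cells (adjusted p = 3.57e-07), opposite in sign to Vegfa in that comparison. Igfbp3, which binds insulin-like growth factors, rose by 2.84 in neurospheres against tissue (adjusted p = 3.28e-06) and by 3.00 in neurospheres against cultured cells (adjusted p = 0.000158). Lox, which crosslinks collagen, rose by 3.15 in neurospheres and by 3.76 in cultured cells against tissue. Car12, a carbonic anhydrase related to Car9, fell by 3.92 in neurospheres and by 1.06 in cultured cells against tissue. The hypoxia targets outside the member set thus also stood on both sides of 0.

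**Figure D5:**
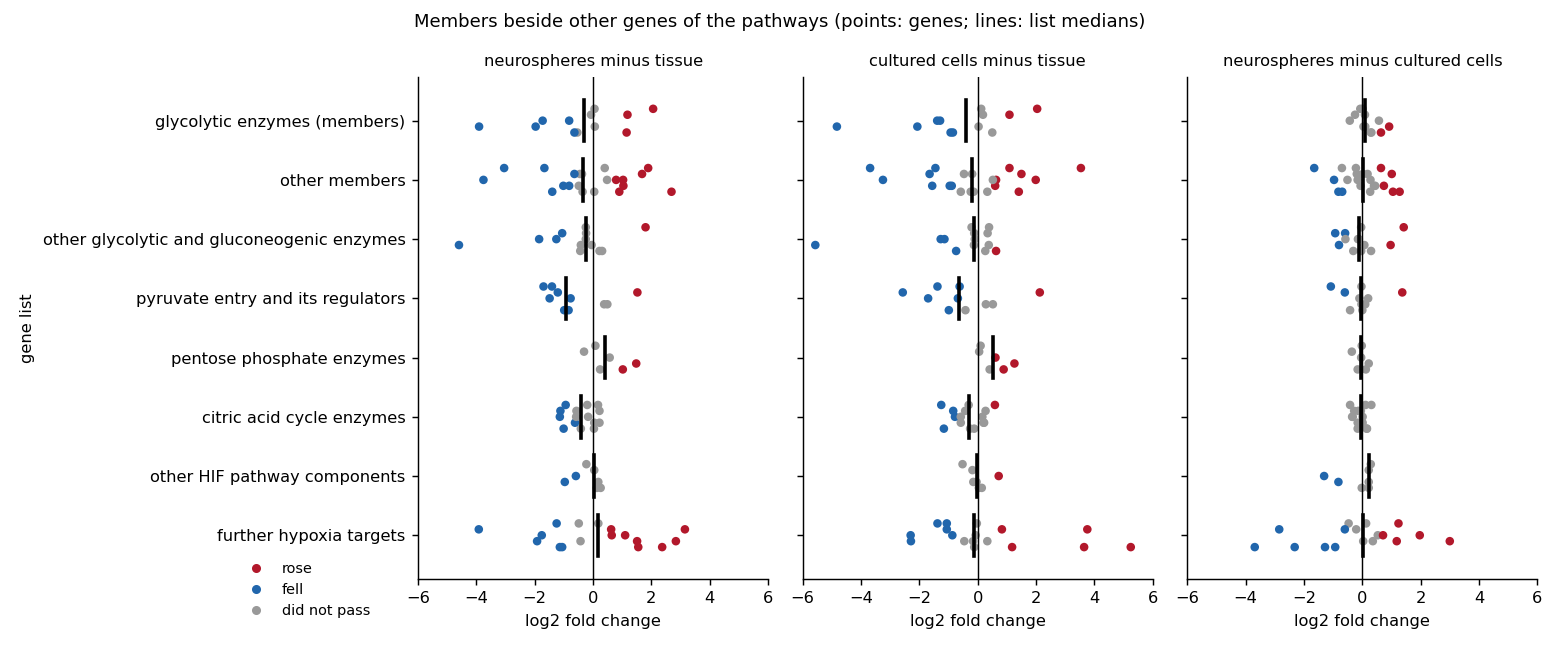
Log2 fold change (horizontal axis) of single genes (points, coloured by call) in the members and in 6 lists of adjoining genes, with a black line at each list's median, for the 3 comparisons. Genes of pyruvate entry and of the citric acid cycle lie mostly below 0 against tissue (medians -0.92 and -0.42 in neurospheres), pentose phosphate enzymes mostly above it (0.40), and hypoxia targets on both sides.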

How the data were processed

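The series holds 9 arrays, 3 each of neurospheres, cultured cells and tissue. Per the labels, 100 ng of total RNA was labelled with the Affymetrix 3′ IVT Express Kit, and the authors made log2 signals by RMA in Affymetrix Expression Console (MAS5 is also named, versions are not given in the sources used here). The deposited log2 values were used as they stood, and array medians were 6.15 to 6.27. Of 45101 probe sets, 64 were controls, 34945 named 1 gene, 932 several and 9160 none. Symbols were updated through GRCm38.p6 RefSeq names, and 162 were kept as given. Each of 18193 genes was represented by its probe set with the highest mean. The 33 members had 69 probe sets, and 19 of the members had more than 1 to choose from.

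Each comparison used limma 3.58.1 (R 4.3.3, lmFit and eBayes, 2-sided) on its 6 arrays over all genes, in place of the t-test of the study's methods because 3 arrays give a poor estimate of a gene's spread, and the code was tested on simulated data. Members and gene lists were chosen with earlier results of these data known. Every measured member is named. Values of single arrays are given for up to 5 members of each role with the largest passing change and for members of gene families that passed in opposite directions. Adjoining lists are described by counts and up to 3 genes in each direction. Alternatives were other scalings, probe set choices, filters, thresholds, tests, a replicate block and leaving out each array. Precision is limited by 3 arrays a group.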

Additional observations from a re-analysis of the deposited data

How the results depend on the processing

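Of 1770 member values under alternatives, 1661 kept direction and call, 40 lost a call, 41 gained one and 28 turned sign. Limits are the 3 arrays a group and the probe set chosen: of 19 members with several probe sets, 11 had one of another call in neurospheres against tissue, 11 in cultured cells against tissue and 8 in neurospheres against cultured cells. The cause of these differences was not tested.

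With a fold change over 2 in place of 1.5, 4961 genes passed in neurospheres against tissue (7762 at 1.5), 4901 in cultured cells against tissue (7718) and 1618 in neurospheres against cultured cells (3259), and with no fold threshold 11641 passed in cultured cells against tissue and 6367 in neurospheres against cultured cells. In neurospheres against cultured cells the 2 enzymes called became 0 with a fold over 2, 1 with the mean of the probe sets and 4 with no fold threshold, and 1 (without neurosphere replicate 2) to 4 (without neurosphere replicate 1) with an array left out. The 9 other members called there became 4 with a fold over 2. With an array left out, 7647 to 7808 genes passed in neurospheres against tissue, 7721 to 7776 in cultured cells against tissue and 3161 to 3369 in neurospheres against cultured cells.

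Signs turned, in neurospheres against tissue, for Slc2a3 without shared probe sets (0.04), with the mean of the probe sets for Hk1 (0.16), Pgk1 (-0.16), Pdha1 (0.96) and Egln1 (0.58), with arrays centred on highly expressed genes for Tpi1 (-0.03), Pgk1 (-0.04) and Pfkfb4 (-0.06), and without neurosphere replicate 1 for Pfkfb4 (-0.05, range -0.05 to 0.09 over the arrays left out). In cultured cells against tissue they turned for Slc2a3 without shared probe sets (0.18), with the mean of the probe sets for Tpi1 (-0.04), Pgk1 (-0.18) and Egln1 (0.74, passing), with centring for Tpi1 (-0.06), with quantile normalization for Ankrd37 (0.10), and without cultured cell replicate 2 for Tpi1 (-0.01, range -0.01 to 0.05). In neurospheres against cultured cells they turned for Slc2a3 without shared probe sets (-0.14), with the mean of the probe sets for Pgk1 (0.02) and Pdk1 (0.13), with quantile normalization for Ldha (-0.01), and with an array left out for Tpi1 (range -0.01 to 0.07), Ldha (-0.05 to 0.05), Pdk1 (-0.21 to 0.03) and Pdk4 (-0.16 to 0.34). Of these members, Slc2a3, Hk1, Pdk1, Ldha and Ankrd37 had passed in any comparison with tissue.

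Near the fold threshold, calls were gained with an array left out by Aldoa (-0.59 without tissue replicate 1) in neurospheres against tissue, by Slc16a3 (0.59 without tissue replicate 2) and Pfkl (0.59 without tissue replicate 3) in cultured cells against tissue, and, in neurospheres against cultured cells, by Hk1 (0.61) and Pfkp (-0.65) without neurosphere replicate 1, Pfkfb3 (-0.86 without neurosphere replicate 1, -0.91 without cultured cell replicate 1) and Ndrg1 (-0.59 without neurosphere replicate 2). With the mean of the probe sets, calls were lost against tissue by Slc2a1 (-0.35) and Pfkp (-0.45) in neurospheres and by Hk1 (-0.29) and Pfkp (-0.31) in cultured cells, and in neurospheres against cultured cells by Slc2a3 (0.30), Slc16a1 (0.58) and Pfkl (0.09). The adjusted t-test of the methods lost Slc2a3 (adjusted p = 0.0888) and Vegfa (0.0603) in neurospheres against cultured cells and kept every member call against tissue. Centring shifted the median gene by -0.10 in neurospheres against tissue. In cultured cells against tissue 3707 genes rose and 4011 fell, but with quantile normalization 4256 rose and 3659 fell, and with the mean of the probe sets 3800 rose and 3378 fell. In neurospheres against tissue 3945 rose and 3817 fell, but with centring 3485 rose and 4186 fell. The balance moved the other way there with quantile normalization (4402 rose, 3599 fell) and with the mean of the probe sets (3981 rose, 3225 fell). In neurospheres against cultured cells 1638 rose and 1621 fell, but with quantile normalization 1511 rose and 1668 fell, with centring 1601 rose and 1657 fell, and with the mean of the probe sets 1399 rose and 1440 fell.

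It is not stated if the replicate numbers in the titles pair the samples, and the main fit used no pairing. Deviations of samples with the same number correlated between -0.19 and 0.21, which cannot show whether such samples share an origin. With the replicate block 7777 genes passed in neurospheres against tissue, 7727 in cultured cells against tissue and 3253 in neurospheres against cultured cells, and no member call changed.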
